A study of Mus musculus with 8 samples.

Results

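The 10 genes described here encode the 3 mammalian transforming growth factor beta (TGF-beta) ligands (Tgfb1, Tgfb2 and Tgfb3), their receptors (Tgfbr1, Tgfbr2 and Tgfbr3) and the latent TGF-beta binding proteins (Ltbp1, Ltbp2, Ltbp3 and Ltbp4). They were chosen by name: the rows of the authors' comparison with these gene names were joined by Ensembl identifier to the count table, and all 10 of 10 were found among its 49671 identifiers. All 10 also passed the filter on low counts, which left 20162 genes to be tested. RNA was sequenced from stromal cells sorted from whole adult mouse lung as live cells positive for yellow fluorescent protein (YFP). One group of mice was Gli2creERT2-tdt:R26RYFP/SmoM2 (4 libraries), in which a tamoxifen-dependent Cre recombinase, expressed where Gli2 is, turns on SmoM2, a mutant Smoothened that signals in the Hedgehog pathway without ligand. The controls were Gli2creERT2-tdt:R26RYFP (4 libraries), so both groups carry the Gli2-driven Cre, its tdt allele and the YFP reporter at Rosa26, and the YFP gate takes cells in which the Cre had acted. The SmoM2 mice received intraperitoneal tamoxifen at 200 mg/kg each day over 5 days, as the labels state, and the dosing of the controls, like the age beyond adult, is not given in the sources used here. Each of the 8 libraries came from its own animal, going by the titles, but the columns of the count table carry other numbers. Libraries are therefore called SmoM2 1 to SmoM2 4 and control 1 to control 4 after those columns.

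TGF-beta is made as a precursor whose cleaved propeptide stays wrapped around the mature dimer and keeps it latent. A latent TGF-beta binding protein (LTBP) is joined to the propeptide by disulfide bonds and ties the complex to fibrillin and fibronectin in the matrix, from which integrins and proteases release the active ligand. The active dimer binds the type II receptor Tgfbr2, which phosphorylates the type I receptor Tgfbr1, and SMAD proteins carry the signal to the nucleus. In lung stroma the pathway is known for control of matrix production and myofibroblast formation.

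Estimated counts summed to between 91.6 and 111.6 M units a library, or 18.3 to 22.3 M fragments at 5 units per fragment. The stromal markers Col1a1, Col1a2, Col3a1, Pdgfra, Pdgfrb, Dcn, Lum and Tcf21 were all detected, with a summed level of 18692 to 30766 CPM (counts scaled to library size, per M) in SmoM2-labelled libraries and 15673 to 31187 CPM in controls. Hedgehog target genes were not detectably higher in the SmoM2-labelled libraries. Gli1 averaged 101 ± 21.5 CPM in SmoM2-labelled and 99.3 ± 32.9 CPM in control libraries, and Ptch1 159 ± 50.8 and 173 ± 57.4 CPM (SD, n = 4 each), with log2 fold changes of 0.03 (95% interval −0.54 to 0.60) and −0.12 (−0.74 to 0.51). The libraries are called SmoM2-labelled for that reason, and each direction given here is relative to that label. On the first principal component of log2 CPM, which held 24.6% of the variance, SmoM2 3 (−58.6) and control 4 (−86.3) lay apart from the other 6 libraries (−2.54 to 47.6). These 2 libraries also had the highest summed level of 12 epithelial markers, at 968 CPM in SmoM2 3 and 1559.7 CPM in control 4, against 231 to 433 CPM in the other SmoM2-labelled libraries and 320 to 404 CPM in the other controls. Most of that sum was the surfactant gene Sftpc, at 564 CPM in SmoM2 3 and 992 CPM in control 4. Not all 12 markers were high there, and the club cell marker Scgb1a1 was at 23.5 CPM in SmoM2 3 and 33.8 CPM in control 4, the lowest 2 of the 8 libraries.

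None of the 10 genes differed between SmoM2-labelled and control libraries beyond the spread between mice. edgeR's quasi-likelihood test called 0 of the 10 at an adjusted p under 0.05, where the share called over all genes tested was 0%. At an unadjusted p under 0.05 it counted 0 of the 10, against 3.75% of all genes. DESeq2 also called 0 of the 10, against 0.285% of all genes with an adjusted p. The authors' deposited table gives all 10 an adjusted p of 1, and 0.0498% of its genes have one under 0.05. For each of the 10 genes the ranges of the 2 groups overlapped, while over all genes tested 2.44% had groups that did not overlap. Of the 10, 7 had a log2 fold change above 0 and 3 below, with a median of 0.12, where 49% of all genes tested were above 0 and their median was −0.004. In edgeR's test the adjusted p of all 10 was 0.9999, and the 95% intervals given with each gene show the sizes of change the data leave possible.

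**Figure D1:**
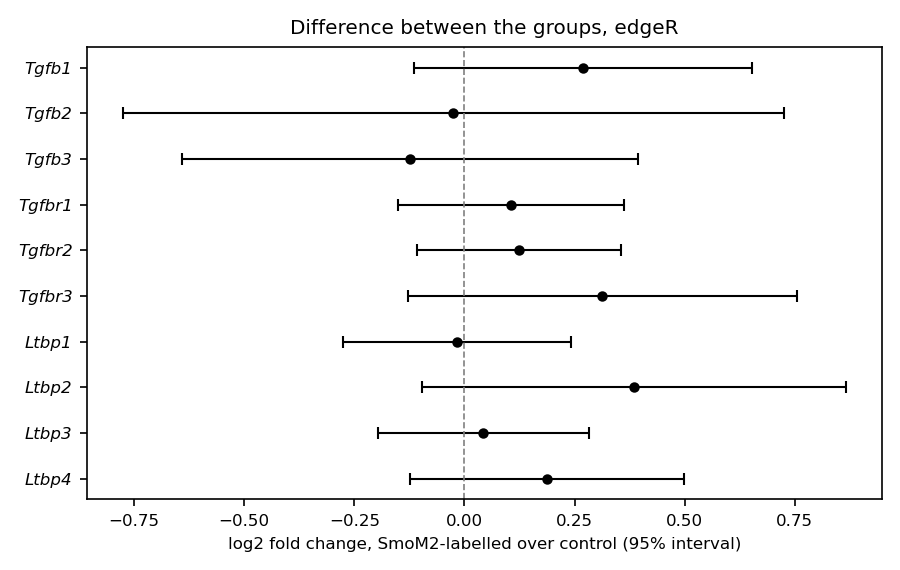
Points are log2 fold changes of the 10 genes, SmoM2-labelled over control libraries (n = 4 each), and bars are 95% intervals from edgeR's quasi-likelihood fit. Every interval spans 0; the widest is that of Tgfb2, from −0.77 to 0.72, and the narrowest that of Tgfbr2, from −0.11 to 0.36.

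Among the ligands, Tgfb3 had the highest level per kilobase of exons in every library, and Tgfb2 varied most between libraries. Tgfb1 (ENSMUSG00000002603, mm10 chromosome 7 from 25687002 to 25705077, plus strand), the ligand that immune cells and platelets also make, was at 59.8, 54.4, 38.7 and 65.7 CPM in SmoM2 1 to SmoM2 4, against 45.4, 45.3, 52.8 and 37.9 CPM in control 1 to control 4. The values of SmoM2 1, SmoM2 2 and SmoM2 4 lay above every control, while SmoM2 3 lay below all but control 4. The means were 54.7 ± 11.6 CPM in SmoM2-labelled and 45.3 ± 6.07 CPM in control libraries, a log2 fold change of 0.27 (SE 0.17, 95% interval −0.11 to 0.65). Without SmoM2 3 the log2 fold change was 0.40, and without SmoM2 4 it was 0.17, neither with an adjusted p under 0.05 in edgeR's test. The 16 immune markers summed to 533 to 1644 CPM in SmoM2-labelled libraries and to 529 to 745 CPM in controls. Tgfb1 and the immune sum were both highest in SmoM2 4, but SmoM2 1, with the next highest Tgfb1, had an immune sum of 533 CPM, and control 4, with the lowest Tgfb1, had one of 723 CPM. Most of the sum in control 4 was Lyz2 (412 CPM) and Cd74 (189 CPM), which were not at their lowest there. Ptprc (23.6 CPM), Csf1r (16.3 CPM) and Laptm5 (25.6 CPM) were at their lowest of the 8 libraries in control 4. The 6 platelet markers were low, with Ppbp at most 0.37 CPM and Treml1 at 0 in 6 of 8 libraries, and summed to 11.4 to 21.1 CPM in SmoM2-labelled libraries, highest in SmoM2 4 and lowest in SmoM2 1, and to 11.6 to 17.4 CPM in controls. The part of immune or platelet RNA in the Tgfb1 values was not tested, and in these bulk samples fewer cells of a type and less RNA per cell cannot be told apart.

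Tgfb2 (ENSMUSG00000039239, chromosome 1 from 186622792 to 186705989, minus strand) was at 45.2, 50.7, 26.1 and 51.2 CPM in SmoM2 1 to SmoM2 4, against 36.3, 63.4, 53.8 and 22.7 CPM in control 1 to control 4. Its lowest values were those of SmoM2 3 and control 4, the libraries that stood apart, and its highest was control 2, 2.79 times the lowest. These values rest on 538 to 1272 fragments a library at 5 units each, so counting error is small beside the spread between mice. The group means were nearly the same, 43.3 ± 11.8 CPM in SmoM2-labelled and 44.1 ± 18.1 CPM in control libraries, a log2 fold change of −0.03 (SE 0.33, 95% interval −0.77 to 0.72). The data therefore leave possible a change of the group mean of up to about that size in either direction. Tgfb3 (ENSMUSG00000021253, chromosome 12 from 86056745 to 86079041, minus strand) was at 306, 288, 283 and 283 CPM in SmoM2 1 to SmoM2 4, against 294, 465, 313 and 193 CPM in control 1 to control 4. All SmoM2-labelled values fell inside the range of the controls, whose ends were control 2 and control 4. The means were 290.2 ± 11.1 CPM in SmoM2-labelled and 316 ± 112.2 CPM in control libraries, a log2 fold change of −0.12 (SE 0.23, 95% interval −0.64 to 0.40). Without control 2 the log2 fold change of Tgfb3 was 0.12, and without control 4 it was −0.30, so leaving out control 2 turned its direction and leaving out control 4 did not.

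**Figure D2:**
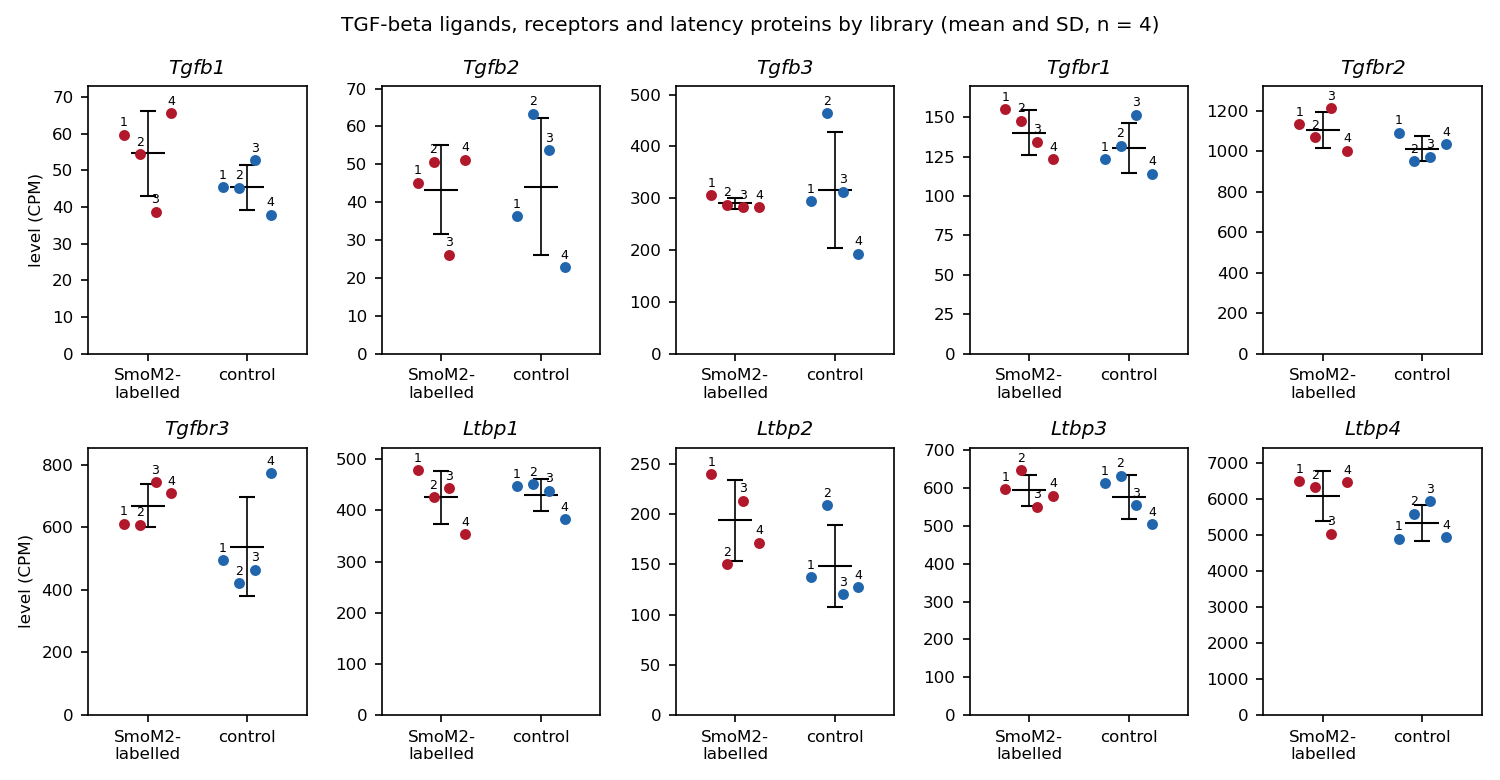
Each panel gives the level of 1 gene in CPM, from 0, with a point for each library numbered by its column in the count table, SmoM2-labelled libraries in red at the left and controls in blue at the right. Bars are the mean and SD (n = 4 each). SmoM2 3 and control 4 are the lowest points of their groups for Tgfb1, Tgfb2, Tgfb3 and Ltbp3 and the highest for Tgfbr3. For Tgfb3, SmoM2 3 lies barely below SmoM2 4. The groups overlap in every panel.

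The promoters of Tgfb1 and Tgfb2 are shown because these ligands were lowest in the same pair of libraries, SmoM2 3 and control 4. Tgfb3 was lowest in that pair too, with SmoM2 3 barely below SmoM2 4, but no RefSeq window was at hand for it. Ltbp3, which is not a ligand, was also lowest in that pair, and its window is not printed. Each window is the 250 bases before the start of transcription in RefSeq (GRCm38.p6), on the strand of the gene, chr7:25686752-25687001 on the plus strand for Tgfb1 and chr1:186705990-186706239 on the minus strand for Tgfb2. Capitals mark 3 motifs, the first being TATAAA (known as the TATA box), searched on the strand of the gene. The next is the E-box CACGTG, which reads the same on both strands. The last is GGGCGG, searched on both strands, a GC box and a site of Sp1 family factors.
Tgfb1: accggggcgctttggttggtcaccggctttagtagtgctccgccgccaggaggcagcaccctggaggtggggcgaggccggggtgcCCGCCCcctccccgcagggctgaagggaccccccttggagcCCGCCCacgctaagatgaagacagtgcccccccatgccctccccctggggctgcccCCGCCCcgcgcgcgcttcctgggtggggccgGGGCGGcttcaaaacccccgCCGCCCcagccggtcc
Tgfb2: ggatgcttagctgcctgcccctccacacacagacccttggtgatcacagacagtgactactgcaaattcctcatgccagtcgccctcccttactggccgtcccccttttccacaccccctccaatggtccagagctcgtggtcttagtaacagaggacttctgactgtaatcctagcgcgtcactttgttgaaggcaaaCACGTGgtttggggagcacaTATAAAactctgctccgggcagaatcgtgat
The Tgfb1 window held 5 GC boxes, no TATA box and no E-box, and 75.2% of its bases were G or C. The Tgfb2 window held 1 TATA box, beginning 31 bases before the start, and 1 E-box, beginning 51 bases before it, no GC box, and 53.6% G or C. No match overlapped another. The Ltbp3 window held no GC box, no TATA box and no E-box, and 47.2% of its bases were G or C. A link between these motifs and the levels by library was not tested. Over the 32851 RefSeq windows of the same length, 32.7% held a GC box, 7.59% a TATA box and 6.02% an E-box, and the median G or C content was 52.4%. The SMAD element CAGAC, searched on both strands and not marked by capitals, was in 42.2% of all windows. It occurred 2 times in the Tgfb2 window, beginning 221 and 204 bases before the start, and was absent from the Tgfb1 window. RefSeq windows were at hand for 8 of the 10 genes, 12 windows in all. None of the 12 held GACCACCCA or its reverse complement, a GLI element found in 0.225% of all windows, which says only that these letters are not in these windows.

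Of the receptors, Tgfbr3 had the largest log2 fold change, and Tgfbr2 had the highest level per kilobase and varied least. Tgfbr2 (ENSMUSG00000032440, chromosome 9 from 116084293 to 116175360, minus strand), the kinase that first binds the ligand, was at 1134, 1069, 1211 and 1003 CPM in SmoM2 1 to SmoM2 4, against 1092, 952, 973 and 1035 CPM in control 1 to control 4. The highest library was 1.27 times the lowest. It averaged 1104 ± 89.0 CPM in SmoM2-labelled and 1013 ± 63.5 CPM in control libraries, a log2 fold change of 0.12 (SE 0.10, 95% interval −0.11 to 0.36), which was 0.077 without SmoM2 3. Tgfbr1 (ENSMUSG00000007613, chromosome 4 from 47353222 to 47414931, plus strand), the kinase that phosphorylates SMAD2 and SMAD3, was at 155, 148, 135 and 123 CPM in SmoM2 1 to SmoM2 4, against 124, 132, 152 and 114 CPM in control 1 to control 4. Its groups overlapped almost fully, at means of 140.3 ± 14.1 CPM in SmoM2-labelled and 130.4 ± 15.9 CPM in control libraries (log2 fold change 0.11, SE 0.11, 95% interval −0.15 to 0.36). Leaving out 1 library gave 0.047 without control 4, 0.049 without SmoM2 1, 0.16 without SmoM2 4 and 0.18 without control 3.

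Tgfbr3 (ENSMUSG00000029287, chromosome 5 from 107106570 to 107289629, minus strand) encodes betaglycan, a co-receptor without kinase activity that presents ligand, TGF-beta 2 above all, to Tgfbr2. It was at 612, 609, 746 and 709 CPM in SmoM2 1 to SmoM2 4, against 494, 422, 465 and 773 CPM in control 1 to control 4. All 4 SmoM2-labelled values lay above control 1, control 2 and control 3, and control 4 lay above all of them. The means were 669 ± 69.2 CPM in SmoM2-labelled and 538 ± 159 CPM in control libraries, a log2 fold change of 0.31 (SE 0.19, 95% interval −0.13 to 0.75). Without control 4 the log2 fold change was 0.54, and without both SmoM2 3 and control 4 it was 0.48 (SE 0.11), with adjusted p of 0.727 and 0.499 in edgeR's test. By library its order was turned round from that of Tgfb2 at the ends. SmoM2 3 and control 4 were the highest of all 8 libraries for Tgfbr3 and the lowest for Tgfb2, while control 2 was the highest for Tgfb2 and the lowest for Tgfbr3.

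Ltbp4 had by far the highest level per kilobase of the latency proteins, and Ltbp2 had the largest log2 fold change of the 10 genes. Ltbp1 (ENSMUSG00000001870, chromosome 17 from 75005568 to 75392512, plus strand), a carrier that binds all 3 latent ligands, was at 478, 425, 444 and 354 CPM in SmoM2 1 to SmoM2 4, against 448, 451, 438 and 383 CPM in control 1 to control 4. The groups overlapped, at means of 425 ± 52.5 CPM in SmoM2-labelled and 430.1 ± 31.7 CPM in control libraries (log2 fold change −0.02, SE 0.11, 95% interval −0.28 to 0.24). Ltbp2 (ENSMUSG00000002020, chromosome 12 from 84783212 to 84876532, minus strand), the family member known not to bind latent TGF-beta and to associate with elastic fibres, was at 239.9, 150.02, 213 and 172 CPM in SmoM2 1 to SmoM2 4, against 137, 209, 121 and 127 CPM in control 1 to control 4. Every SmoM2-labelled library lay above control 1, control 3 and control 4, and control 2 lay above SmoM2 2 and SmoM2 4. Its means were 194 ± 40.5 CPM in SmoM2-labelled and 148 ± 40.8 CPM in control libraries, a log2 fold change of 0.38 (SE 0.21, 95% interval −0.10 to 0.87), which was 0.59 without control 2 and 0.26 without SmoM2 1.

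Ltbp3 (ENSMUSG00000024940, chromosome 19 from 5740904 to 5758532, plus strand), which also binds all 3 latent ligands, was at 598, 648, 551 and 580.4 CPM in SmoM2 1 to SmoM2 4, against 614, 634, 555 and 505 CPM in control 1 to control 4. It was among the steadiest of the 10 genes, with means of 594 ± 40.7 CPM in SmoM2-labelled and 577 ± 58.3 CPM in control libraries (log2 fold change 0.04, SE 0.11, 95% interval −0.20 to 0.28). Ltbp4 (ENSMUSG00000040488, chromosome 7 from 27305136 to 27337692, minus strand), which binds latent TGF-beta 1 and takes part in elastic fibre assembly in the lung, was at 6504, 6337, 5042 and 6478 CPM in SmoM2 1 to SmoM2 4, against 4907, 5597, 5943 and 4947 CPM in control 1 to control 4. All SmoM2-labelled libraries but SmoM2 3 lay above every control. The means were 6090.4 ± 703 CPM in SmoM2-labelled and 5349 ± 507 CPM in control libraries, a log2 fold change of 0.19 (SE 0.14, 95% interval −0.12 to 0.50).

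Parts of some exons lie under other annotated genes, and since the sources used here state no strand for the counting, reads there cannot be told apart. Antisense or opposite-strand transcripts share 9.34% of the exon bases of Ltbp2 (D030025P21Rik), 7.6% and 4.82% of those of Tgfb3 (Gm48008 and Gm37804) and 2.14% of those of Tgfb2 (Gm29491). A same-strand gene model, Gm43422, shares 4.54% of those of Tgfbr3.

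Levels of different genes were compared as CPM per kilobase of the union of annotated exons. Ltbp4 led, at 942 ± 109 CPM per kilobase in SmoM2-labelled and 828 ± 78.4 in control libraries. Tgfbr2 followed at 135 ± 10.9 in SmoM2-labelled and 124 ± 7.76 in control libraries, and its range over the 8 libraries did not reach that of Ltbp4. Next came Tgfbr3 (102 ± 10.6 in SmoM2-labelled and 82.3 ± 24.3 in control libraries), Tgfb3 (85.8 ± 3.27 and 93.5 ± 33.2) and Ltbp3 (65.5 ± 4.49 and 63.6 ± 6.42). The ranges of Tgfbr2 and Tgfbr3, of Tgfbr3 and Tgfb3, and of Tgfb3 and Ltbp3 overlapped, so those neighbours are not separated by their spread, although Tgfbr2 was above Tgfbr3 in 8 of 8 libraries and Tgfb3 above Ltbp3 in 8 of 8. Ltbp1 stood apart from both neighbours, at 39.8 ± 4.91 in SmoM2-labelled and 40.2 ± 2.96 in control libraries. Ltbp2 (23.7 ± 4.95 in SmoM2-labelled and 18.1 ± 4.98 in control libraries) and Tgfbr1 (21.5 ± 2.16 and 19.96 ± 2.44) were not separated, each being the higher in 4 of 8 libraries. The lowest were Tgfb1 (10.8 ± 2.29 in SmoM2-labelled and 8.99 ± 1.2 in control libraries) and Tgfb2 (7.48 ± 2.03 and 7.61 ± 3.13), whose ranges overlapped, with Tgfb1 above Tgfb2 in 7 of 8 libraries. With the longest annotated transcript as the length, Ltbp3 moved ahead of Tgfbr3 and Tgfb3, and the other genes kept their order.

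**Figure D3:**
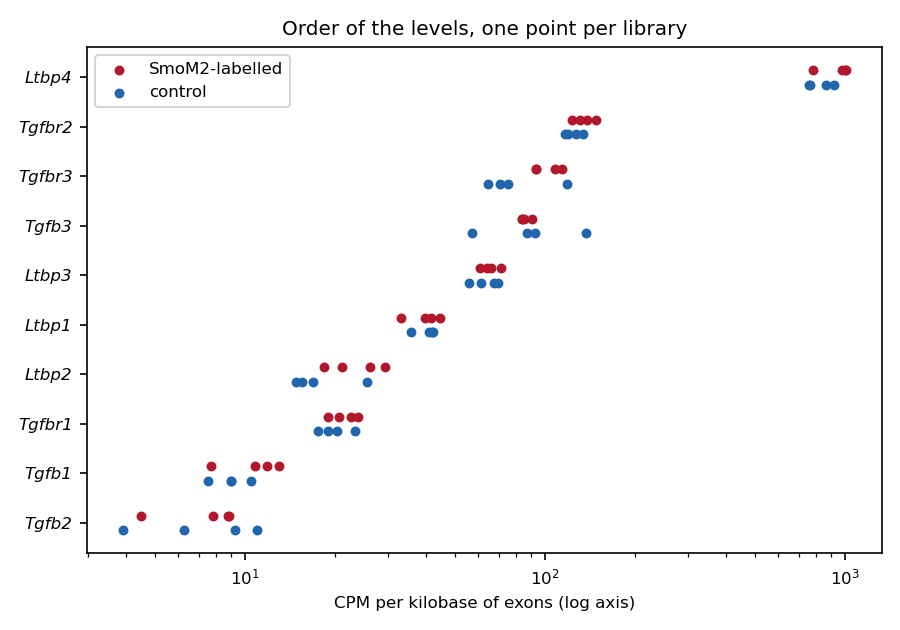
Levels in CPM per kilobase of exons on a log axis, 1 point per library, SmoM2-labelled libraries in red above controls in blue, with the genes in order of their mean over the 8 libraries. Ltbp4 lies apart at 759 to 1006, and Tgfb2 is lowest at 3.93 to 10.9.

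On that scale Tgfb3 made up most of the ligand RNA in every library. Its share of the summed level of the ligands was 82.5% ± 3.40 in SmoM2-labelled and 84.5% ± 2.18 in control libraries (SD, n = 4 each), with a range of 79.3% to 87.3% over the 8 libraries. The share of Tgfb1 was 10.4% ± 1.79 in SmoM2-labelled and 8.70% ± 2.20 in control libraries, and that of Tgfb2 was 7.13% ± 1.73 and 6.77% ± 1.13. For the LTBPs, Ltbp4 held 87.9% ± 1.5 in SmoM2-labelled and 87.1% ± 1.36 in control libraries. Ltbp3 held 6.15% ± 0.49 in SmoM2-labelled and 6.72% ± 0.75 in control libraries. Between-group differences in these shares were smaller than the SD of each group for Tgfb1, Tgfb2, Tgfb3 and Ltbp4. For Ltbp3 the difference was larger than the SD of the SmoM2-labelled libraries (0.49) and smaller than that of the controls (0.75). The differences in shares were not tested, being a score over the chosen genes.

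Single libraries held the extremes of several genes at once. Control 4 was lowest of the 8 libraries for 5 of the 10 genes (Tgfb1, Tgfb2, Tgfb3, Tgfbr1 and Ltbp3), among the lowest 2 for 8 of them, and highest for Tgfbr3. SmoM2 3 was among the lowest 2 for Tgfb1, Tgfb2, Tgfb3 and Ltbp3, and highest for Tgfbr2. Control 2 was highest for Tgfb2 and Tgfb3 and lowest for Tgfbr2 and Tgfbr3, while SmoM2 1 was highest for Tgfbr1, Ltbp1, Ltbp2 and Ltbp4. SmoM2 3 and control 4 also had the lowest summed levels of the stromal markers, at 18692 CPM in SmoM2 3 and 15673 CPM in control 4, against 26803 to 30766 CPM in the other SmoM2-labelled libraries and 22515 to 31187 CPM in the other controls. Not all of these stromal markers were low there. Col1a1, Col1a2, Col3a1, Dcn and Lum were lowest in those 2 libraries, and Pdgfrb was lowest in control 4. Tcf21 was highest in the pair, at 223 CPM in SmoM2 3 and 270 CPM in control 4. Pdgfra, at 2059 CPM in SmoM2 3 and 2042 CPM in control 4, was exceeded by SmoM2 2 alone. The part of these marker levels in the values of the 10 genes was not tested. Without both libraries edgeR called 0 of the 10 genes, but it then called 0 of all genes tested too. The median log2 fold change of the 10 was then 0.08.

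**Figure D4:**
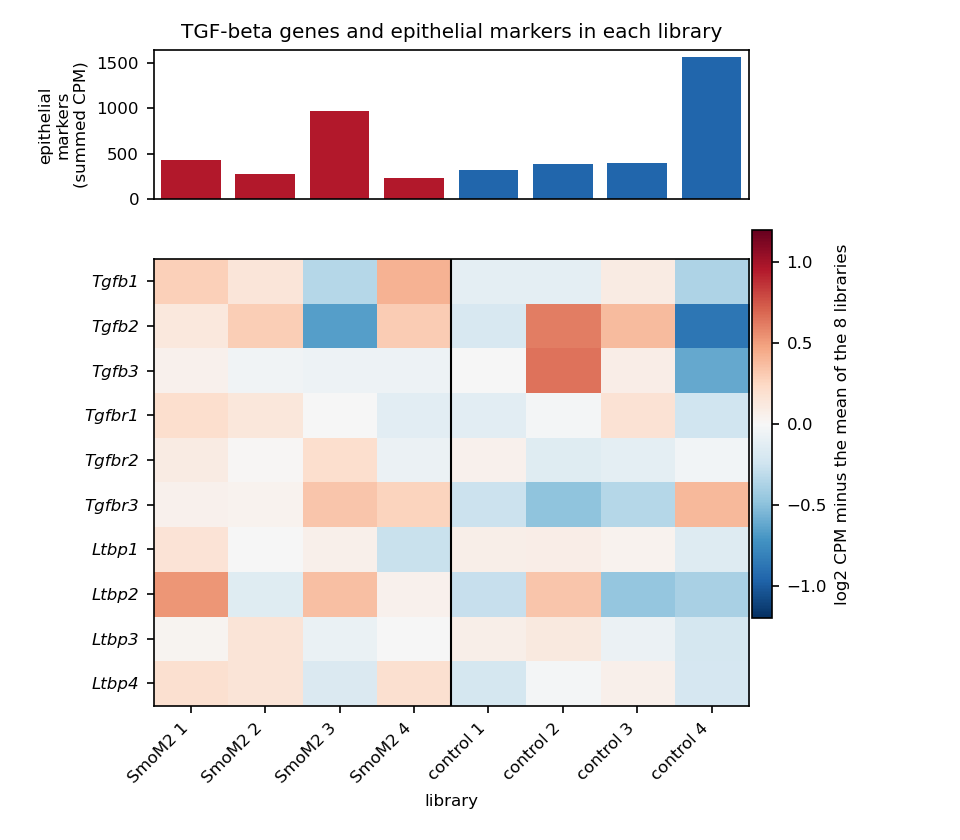
Colours give the log2 CPM of each gene minus its mean over the 8 libraries, with SmoM2-labelled libraries left of the line and controls right of it, and bars above give the summed CPM of 12 epithelial markers. Tgfb1, Tgfb2, Tgfb3 and Ltbp3 are lowest and Tgfbr3 highest in SmoM2 3 and control 4, with Tgfb3 and Ltbp3 in SmoM2 3 only barely below the next library. The epithelial bars of these libraries, mostly surfactant genes, reach 968 and 1559.7 CPM.

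The 3 genes with the widest spread over the 8 libraries were Tgfb2, Ltbp2 and Tgfb3, with SDs of log2 CPM of 0.53, 0.37 and 0.34. Their nearest patterns were sought among 9277 genes that averaged 10 CPM or more, as the smallest root mean square difference of log2 CPM over the 8 libraries after each gene's mean was removed. Nearest to Tgfb2 were Ehbp1l1 (0.076), the metalloprotease gene Adam19 (0.086) and the transcription factor gene Nfatc1 (0.11). Adam19 was at 35.7, 40.99, 22.8 and 45.4 CPM in SmoM2 1 to SmoM2 4, against 32.1, 48.4, 45.3 and 17.4 CPM in control 1 to control 4. Its lowest libraries were SmoM2 3 and control 4 and its highest control 2, which follows from its choice by likeness to Tgfb2 over these libraries. Nearest to Ltbp2 were Col7a1 (0.13), which encodes the collagen of anchoring fibrils, Rsl24d1 (0.15) and Tiam2 (0.15). Tgfb3 was most like Afap1l2 (0.10), the hexokinase gene Hk1 (0.10) and Kank1 (0.11).

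The other genes of the pathway were followed as a list of 62, sorted by role. All 62 were tested, and edgeR called 0 higher and 0 lower in SmoM2-labelled libraries, against 0% of all genes. At an unadjusted p under 0.05 it counted 2 of 62, against 3.75% of all genes, and DESeq2 called 0. The groups overlapped for all 62, where 2.44% of all genes did not. Their median log2 fold change was 0.04, with 36 above 0, 26 below and a range of −0.33 to 1.16. That median was 0.0078 without control 4, 0.097 without SmoM2 3, 0.10 without control 2 and 0.072 without control 3. The 2 with an unadjusted p under 0.05 were Pcsk5, a proprotein convertase gene, and Tgif1, which encodes a nuclear corepressor of SMAD proteins and is named after its values were seen. Pcsk5 averaged 197 ± 15.3 CPM in SmoM2-labelled and 143 ± 37.7 CPM in control libraries (log2 fold change 0.46), and Tgif1 44.9 ± 6.08 and 33.5 ± 5.62 CPM (0.42).

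Among 6 genes of processing and presentation the median log2 fold change was 0.13. Pcsk6, another convertase gene, was at 233, 256, 79.0 and 299 CPM in SmoM2 1 to SmoM2 4, against 105, 136, 193 and 71.5 CPM in control 1 to control 4, lowest in the same pair of libraries as Tgfb2. Lrrc32, which encodes the cell surface anchor GARP, averaged 176 ± 64.0 CPM in SmoM2-labelled and 166 ± 72.0 CPM in control libraries. The 7 matrix anchors had a median of 0.11. Fbn1, which encodes fibrillin-1, to which LTBPs bind, averaged 2269 ± 347 CPM in SmoM2-labelled and 1901 ± 398 CPM in control libraries, and Fn1, the fibronectin gene, 2861 ± 977 and 2195 ± 339 CPM. Tgm2, a crosslinking transglutaminase gene, was at 885 ± 204 CPM in SmoM2-labelled and 993 ± 282 CPM in control libraries.

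The 12 activators had a median of −0.02. Thbs1, which encodes thrombospondin-1, averaged 7799 ± 2402 CPM in SmoM2-labelled and 8336 ± 4297 CPM in control libraries, Itgb1 739 ± 98.1 and 741 ± 104 CPM, and the gelatinase gene Mmp2 1493 ± 151 and 1531 ± 416 CPM. Itgb6, the integrin chain of epithelium that activates TGF-beta with the alpha v chain, was near 0, at 0.22 ± 0.05 CPM in SmoM2-labelled and 0.23 ± 0.24 CPM in control libraries, and is named after its values were seen. All 7 extracellular binders and antagonists had a log2 fold change above 0 with none called (median 0.14), and Dcn, which encodes decorin, averaged 4756 ± 1695 CPM in SmoM2-labelled and 3459 ± 1060 CPM in control libraries. Biglycan (Bgn) averaged 4621 ± 578 and 4495 ± 399 CPM and fibromodulin (Fmod) 263 ± 70.4 and 221 ± 111.6 CPM.

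Of the 4 other receptors and co-receptors (median 0.04), Acvrl1, an alternative type I receptor gene, averaged 193 ± 15.4 CPM in SmoM2-labelled and 188 ± 25.7 CPM in control libraries, Eng, the endoglin gene, 107 ± 7.62 and 105 ± 11.2 CPM, and Nrp1 211 ± 51.8 and 198 ± 28.7 CPM. The 8 SMADs and receptor adaptors were the closest to 0, with a median of −0.01. Smad3, which carries the signal to DNA, averaged 150.2 ± 17.0 CPM in SmoM2-labelled and 155 ± 34.8 CPM in control libraries, Dab2 108 ± 14.9 and 92.2 ± 14.1 CPM, and the kinase gene Map3k7 75.1 ± 4.95 and 76.5 ± 4.66 CPM. The 10 inhibitors inside the cell had a median of 0.04, with the corepressor genes Ski at 502 ± 60.7 CPM in SmoM2-labelled and 493 ± 88.1 CPM in control libraries and Skil at 274 ± 38.4 and 252 ± 77.7 CPM, and Pmepa1 at 339 ± 42.5 and 318 ± 43.4 CPM. For the 8 targets the median was 0.04, with 4 above 0 and 4 below. Col1a1 and Col1a2 among them, like Dcn, are also on the list of stromal markers. Col1a1 averaged 5218 ± 1097 CPM in SmoM2-labelled and 5346 ± 2053 CPM in control libraries, Col1a2 6206 ± 1406 and 6287 ± 2064 CPM, and Timp3 3243 ± 466 and 3288 ± 611 CPM.

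**Figure D5:**
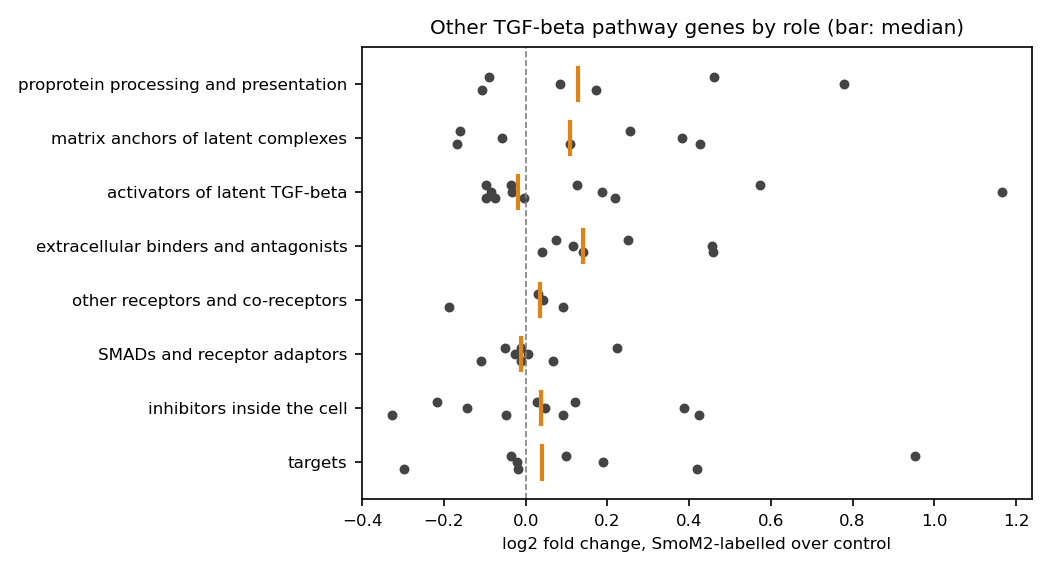
Each point is the log2 fold change of 1 of the 62 other pathway genes, SmoM2-labelled over control libraries, in rows by role, and orange bars are the medians of each role. The medians lie between −0.02 for the activators and 0.14 for the extracellular binders and antagonists, and none of the genes was called.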

How the data were processed

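Polyadenylated RNA of sorted YFP-positive lung cells was sequenced, and the authors deposited a table of estimated counts by Ensembl gene, 1 column a library. Per the submitters' processing notes the build was mm10 and the tools included HISAT, StringTie, DESeq and FastQC, without versions or roles. The deposited counts were whole numbers and were used unrounded. In every library more genes stood at 5 units than at any other value above 0 (672 to 771 genes), so 1 fragment was taken to add 5 units, which the values do not settle against 4. Per the file headers, the authors' other table gives their mean normalised signal per group, a ratio of the groups (fold change) with its log2 form, and p-values; group means of the counts after median-of-ratios scaling matched its signal within 2.28e-09, with SmoM2 over control.

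edgeR 4.0.16 (R 4.3.3, TMM, filterByExpr, robust quasi-likelihood fit with group as the sole term) tested 20162 genes with Benjamini-Hochberg adjustment over all of them, called at an adjusted p under 0.05. CPM used the TMM library sizes, and log2 CPM a prior count of 2. SEs were derived as the size of the log2 fold change divided by the root of the F statistic. P-values reflect variation among the 8 mice. The fit was tested on simulated data. Alternatives were DESeq2 1.42.0, RLE factors, no filter, counts divided by 5, sex (read from Xist and Y-linked genes) as a covariate, leaving out each library, and, chosen after seeing the data, leaving out SmoM2 3 and control 4 together. No pair of libraries differed as little as counting noise (chi-square over degrees of freedom 20.9 to 95.3). Positions and exon lengths came from GENCODE M21 (GRCm38, also called mm10), and promoters from RefSeq. Not every exon overlap is reported here.

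The 10 genes, the pathway list and the marker lists (stroma, immune, platelet, endothelial, epithelial, mesothelial, smooth muscle, pericyte, cartilage and red blood cell) were chosen with earlier results of these data known. The rule named all 10 genes, the 3 most abundant pathway genes of each role and any called, and the 3 nearest patterns of the 3 most variable of the 10. Counts of PCR reads are not counts of molecules.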

Additional observations from a re-analysis of the deposited data

Results flagged for a closer look

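A library lay far from the other 3 of its group in 7 of the 88 groups of 4 examined, where chance gives about 1 in 20 for a single group. The 88 groups are values of the same 8 libraries and so are not independent, and their count was not tested against that rate. Ltbp4 was at 5042 CPM in SmoM2 3, against 6337 to 6504 CPM in the other SmoM2-labelled libraries. Fbn1 was at 1753 CPM in SmoM2 3, against 2398 to 2505 CPM in the rest of its group, and at 1309 CPM in control 4, against 2039 to 2156 CPM in the other controls. Tgm2 was at 1188 CPM in SmoM2 3, against 757 to 819 CPM in the other SmoM2-labelled libraries. Summed epithelial markers reached 1559.7 CPM in control 4, against 320 to 404 CPM in the other controls. The summed immune markers were at 529 CPM in control 2, against 723 to 745 CPM in the other controls, and the summed platelet markers at 17.4 CPM in control 3, against 11.6 to 12.04 CPM in the other controls.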

How the results depend on the processing

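Over 14 alternatives for each of the 10 genes, 131 of 140 log2 fold changes kept their direction and 0 reached an adjusted p under 0.05, the smallest being 0.499 (Tgfbr3 without both SmoM2 3 and control 4). The 9 that turned sign all came from leaving out 1 library. The unadjusted p of edgeR's test, under 0.05 for 0 of the 10 with all libraries, fell under it in some of these fits. It was 0.0019 for Tgfbr3 without control 4, 0.0090 for Ltbp2 without control 2 and 0.013 for Tgfb1 without SmoM2 3. Without both SmoM2 3 and control 4 it was 0.0034 for Tgfbr3 and 0.019 for Tgfb1. The share of all genes under 0.05 in those fits is not given here. The range when each library was left out was −0.24 to 0.20 for Tgfb2, −0.30 to 0.12 for Tgfb3, −0.081 to 0.063 for Ltbp1 and −0.016 to 0.087 for Ltbp3. It was 0.17 to 0.40 for Tgfb1, 0.047 to 0.18 for Tgfbr1, 0.077 to 0.17 for Tgfbr2, 0.21 to 0.54 for Tgfbr3, 0.26 to 0.59 for Ltbp2 and 0.15 to 0.27 for Ltbp4. The median was 0.079 to 0.16 over the 10 genes and 0.0078 to 0.10 over the 62 pathway genes. Tgfb2 turned positive without SmoM2 3 (0.15), control 2 (0.20) or control 3 (0.08), Tgfb3 without control 2 (0.12), and Ltbp1 without SmoM2 4 (0.063), control 1 (0.0032) or control 2 (0.0028). Ltbp3 turned negative without SmoM2 2 (−0.0049) or control 4 (−0.016). DESeq2 called 69 genes where edgeR called 0, none of them among the 10 or the 62 pathway genes, and the cause was not tested. Without single libraries edgeR called 0 to 1 genes.

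With the longest transcript as the length, which is shorter than the union of exons for all of the 10 genes but Tgfb3, mean levels per kilobase were 19.4 for Tgfb1, 23.5 for Tgfbr1, 64.1 for Ltbp1, 102 for Ltbp3 and 1062 for Ltbp4. The mean shares were then 16.9% for Tgfb1 and 75.9% for Tgfb3 among the ligands, and 5.16% for Ltbp1, 8.21% for Ltbp3 and 84.6% for Ltbp4 among the LTBPs. No paired analysis was possible because the titles give the animals of the 2 groups no shared numbers and the column numbers are not tied to animals. With 4 mice a group, the 95% intervals give the changes the data leave possible. They do not set which changes could be called, since calls used p-values adjusted over all genes tested.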

Other observations

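Markers of other cell types of the lung were detected at varied levels. The 9 mesothelial markers summed to 107 to 227 CPM in SmoM2-labelled libraries and 280.1 to 504 CPM in controls, and all 9 had a log2 fold change below 0 (median −1.24) with 6 at an unadjusted p under 0.05, 4 with groups that did not overlap, and none called over all genes by edgeR. Over all genes tested, 3.75% had an unadjusted p under 0.05 and 2.44% had groups that did not overlap. Those shares stand beside the counts of every list here. For the 10 cartilage markers the sums were 325 to 1834 CPM in SmoM2-labelled libraries and 137 to 1370.2 CPM in controls, with all 10 above 0 and none called (median 0.60). The 12 endothelial markers summed to 128 to 201 CPM in SmoM2-labelled libraries and 128 to 265 CPM in controls, with 9 of the 12 below 0 (median −0.95), 3 at an unadjusted p under 0.05, 2 with groups that did not overlap and none called. Tek and Ramp2, which made up much of the endothelial sums, had log2 fold changes of 0.68 and 0.30. Pecam1, Cdh5, Tie1, Vwf, Cldn5, Emcn, Esam and Plvap were highest of the 8 libraries in control 4, and Kdr, Tek, Ramp2 and Erg were not. Cdh5 was at 44.4 CPM in control 4, against 4.49 to 8.60 CPM in the other controls, and Pecam1 at 32.8 CPM, against 7.63 to 9.42 CPM. The part of that library in the endothelial fold changes was not tested. Of the 12 epithelial markers 11 were below 0 (median −0.41) and none was called. Of them 2, Krt8 and Krt18, had an unadjusted p under 0.05, and the same 2 had groups that did not overlap. The 16 immune markers had 13 above 0 (median 0.45), with 1 at an unadjusted p under 0.05 and none called. The 8 smooth muscle markers summed to 237 to 471 CPM in SmoM2-labelled libraries and 331 to 519 CPM in controls, with 7 of 8 below 0 (median −0.32), and the 8 pericyte markers to 645 to 774 CPM in SmoM2-labelled libraries and 491 to 903 CPM in controls, with 5 of 8 below 0 (median −0.18); none was called. The 5 red blood cell markers summed to 9.15 to 79.5 CPM in SmoM2-labelled libraries and 8.06 to 36.5 CPM in controls, with all 5 above 0 and none called (median 0.76).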
